A study of Mus musculus with 10 samples.

Results

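The 6 genes described here are Pou5f1 (which encodes Oct4), Sox2 and Klf4, the 3 factors delivered by retrovirus to start reprogramming, and Myc, Mycn and Mycl, the 3 Myc family genes that were not delivered. They were chosen by gene name out of 48476 genes in the deposited count table. Mouse embryonic fibroblasts (MEFs) of the cross CBA/CaJ X C57BL/6J, from E13.5 embryos carrying an Oct4-GFP reporter, received retroviruses that carry Oct4, Sox2 and Klf4 (together OKS) plus either DsRed, a red fluorescent protein that serves as the control and is written DR, or FoxO6. Cells of both arms were kept in iCD1 medium and were taken for bulk RNA-seq on days 0, 1, 3, 5 and 7, each arm giving 1 library on each of these days and 10 libraries coming from the course. The labels name no sort for cells that carry the factors, the cells of an arm may come from a shared infected culture, and a count from a viral transcript of Pou5f1, Sox2 or Klf4 cannot be told apart from a count of the gene in the genome.

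Oct4 and Sox2 bind DNA side by side at many genes of pluripotent cells, and Klf4 is a zinc finger factor that binds many of the same genes. Myc, Mycn and Mycl encode related factors that pair with Max and bind the E-box, and their targets include genes for ribosome biogenesis, nucleotide synthesis and cell growth. Myc is part of the original reprogramming mixture and is left out of OKS, so that the Myc proteins of these cells come from their own genes. FoxO6 is a forkhead factor.

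Libraries held between 1208379 and 2225750 expected counts, which are the read numbers that RSEM assigns to each gene. Foxo6 itself was at 1 to 4 counts in the OKS+DR libraries and at 1743 to 3375 counts in the OKS+FoxO6 libraries, as the labels say. Of the fibroblast markers, all 10 had a mean of at least 1 TPM over the libraries, and of the 6 macrophage markers Ptprc, Adgre1, Csf1r and Fcgr1 were at 3 counts or fewer in every library. The other 2 were at 6 to 46 counts (Cd68) and at 1 to 6 counts (Lyz2), and the summed TPM of the 6 was 14.1 to 55.8 in OKS+DR and 17.98 to 29.0 in OKS+FoxO6. Levels are given in TPM, the share of all transcripts after scaling for transcript length, and differences between arms in a single day have counting intervals only, because there is 1 library per arm and day. Such 95% intervals, exact Poisson for a level and exact binomial for a ratio or share, cover counting error and not the spread between cultures. The arm shift is the log2 difference of OKS+FoxO6 minus OKS+DR over the 5 days, fitted to the counts by the quasi-likelihood method of edgeR (each day has its own term), and its adjusted p (Benjamini-Hochberg over 12139 genes) describes these 2 time courses. The labels do not name separate infections, so the p-values measure only the spread between these libraries.

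On the GRCm38 assembly, GENCODE M21 places Pou5f1 (ENSMUSG00000024406) on the plus strand of chromosome 17 from 35506018 to 35510772. Sox2 (ENSMUSG00000074637), a gene of 1 exon, lies on chromosome 3, plus strand, from 34650405 to 34652461, inside the long non-coding gene Sox2ot. Klf4 (ENSMUSG00000003032) is on the minus strand of chromosome 4 from 55527143 to 55532466. Myc (ENSMUSG00000022346) is on the plus strand of chromosome 15 from 61985391 to 61990374. Mycn (ENSMUSG00000037169) is on the minus strand of chromosome 12 from 12936093 to 12941914, and Mycl (ENSMUSG00000028654) is on the plus strand of chromosome 4 from 122995652 to 123002485.

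Mycn was the Myc family gene with an adjusted arm shift past the threshold, and the bases in front of it are shown for that reason. They are the 172 bases of RefSeq's promoter window (GRCm38.p6, chr12:12941915-12942086, minus strand, written 5′ to 3′) that lie before the most upstream GENCODE start of the gene. Capitals mark TTTGGCGC, the core letters of a site of the E2F cell cycle factors.
Mycn: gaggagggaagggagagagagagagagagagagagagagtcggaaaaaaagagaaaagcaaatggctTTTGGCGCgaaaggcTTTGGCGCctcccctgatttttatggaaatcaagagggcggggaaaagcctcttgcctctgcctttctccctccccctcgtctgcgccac
TTTGGCGC occurred at bases 68 and 83 of this run, and its letters were chosen after the sequence was seen. On either strand, 0.417% of the 32851 promoter windows of 250 bases in the RefSeq table hold it. The E-box CACGTG was in 6.02% of the windows, the forkhead core TGTTTAC in 3.17% and the octamer ATGCAAAT in 1.6%, and none of these 3 motifs was found in the Mycn window, so that no match overlaps another. For Mycn and for the RefSeq entries of Pou5f1, Sox2, Klf4 and Mycl the same 250 bases before the start were searched, and outside Mycn the search found 1 match, a CACGTG before Klf4. These matches describe letters and not binding.

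Pou5f1, Sox2 and Klf4 were the most abundant of the 6 genes in all 10 libraries, and none of them was below 1329 TPM, the level of Klf4 at day 0 in OKS+DR. In TPM, Pou5f1 stood at 2559.6, 4168, 4569, 3720.2 and 3941 at days 0, 1, 3, 5 and 7 in OKS+DR. The corresponding values in OKS+FoxO6 were 3386, 4742, 5464, 7071 and 5379. Pou5f1 was thus higher in OKS+FoxO6 on each of the 5 days, with the widest gap at day 5, although the ranges of the arms over the days overlapped. For comparison, 11.4% of the tested genes had a higher log2(TPM + 1) in OKS+FoxO6 on all 5 days. As a share of library counts, Pou5f1 was 1.22-fold higher in OKS+FoxO6 on day 0 (95% counting interval 1.16 to 1.29). The ratios on days 1, 3 and 7 were 1.14, 1.18 and 1.51, and the highest was 1.85 on day 5 (1.78 to 1.93). Its arm shift was 0.43 (SE 0.12, adjusted p = 0.0344), and Pou5f1 was the member of the trio that passed the threshold, where 6.68% of all tested genes were called higher. The call held without day 0 (0.47, adjusted p = 0.0353) and was lost when any other day was left out: without day 1 the adjusted p was 0.0504, without day 3 it was 0.0764, without day 5 it was 0.151 with a shift of 0.31, and without day 7 it was 0.0568.

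**Figure D1:**
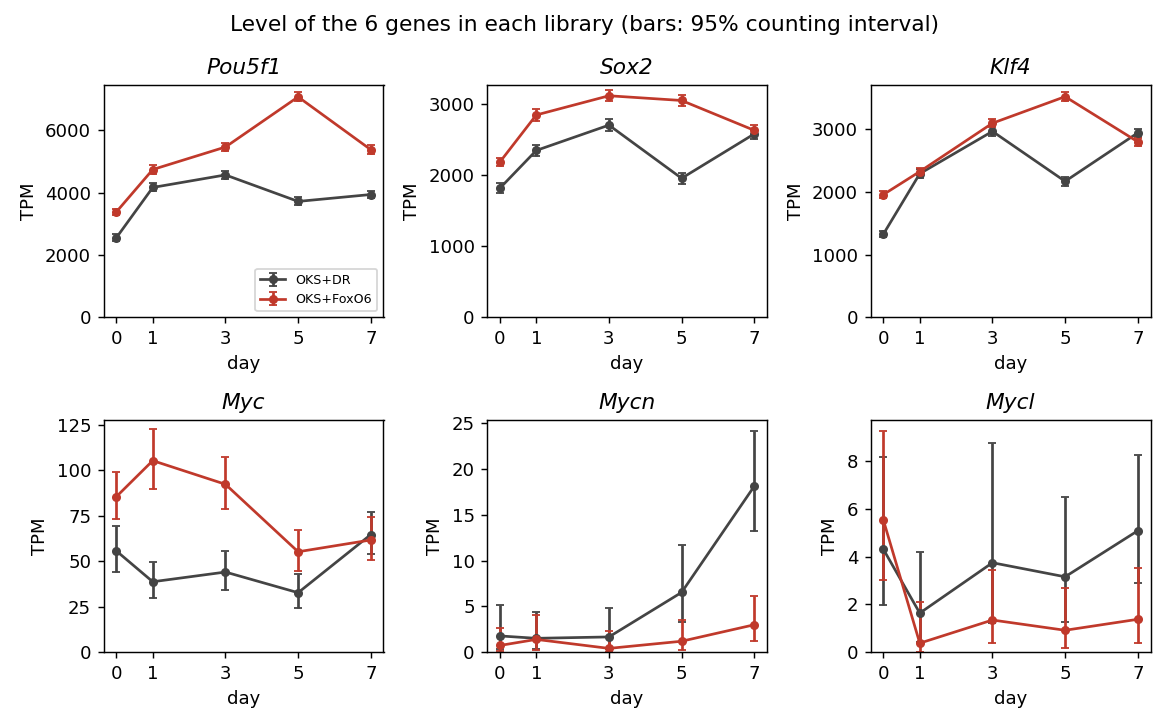
TPM (vertical axes, starting at 0) against day (horizontal axes) for the 6 genes, with OKS+DR in grey and OKS+FoxO6 in red, 1 library per point and bars for the 95% counting interval. Pou5f1 lies higher in OKS+FoxO6 on all 5 days, while Mycn reaches 18.1 TPM at day 7 in OKS+DR and 3.0 TPM in OKS+FoxO6.

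Sox2 stood at 1814, 2342, 2698, 1952 and 2574 TPM at days 0, 1, 3, 5 and 7 in OKS+DR. In OKS+FoxO6 it stood at 2181, 2839.96, 3109, 3043 and 2624 TPM. Sox2 was higher in OKS+FoxO6 on all 5 days, but at day 7 the TPM differed by 1.02-fold. By share of library counts the ratio lay between 1.11 at day 0 and 1.52 at day 5 (95% counting interval at day 5, 1.45 to 1.59). Its arm shift of 0.27 (SE 0.099, adjusted p = 0.101) did not pass the threshold.

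Klf4 stood at 1329, 2290.01, 2964, 2168 and 2940.4 TPM at days 0, 1, 3, 5 and 7 in OKS+DR. In OKS+FoxO6 it stood at 1958, 2323, 3094, 3517 and 2798 TPM. Klf4 was higher in OKS+FoxO6 at days 0 to 5 by TPM and lower at day 7, where the TPM ratio was 0.951. By share of library counts the day 7 ratio was 1.13 (95% counting interval 1.09 to 1.17), so that the direction at day 7 depends on the scale. The average transcript length that RSEM used for Klf4 moved between 2525 and 3028 bases among libraries, and its 3 annotated transcripts are 3029, 859 and 522 bases long. The arm shift of Klf4 was 0.30 (SE 0.10, adjusted p = 0.0761) and did not pass, and without day 5 it was 0.20.

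**Figure D2:**
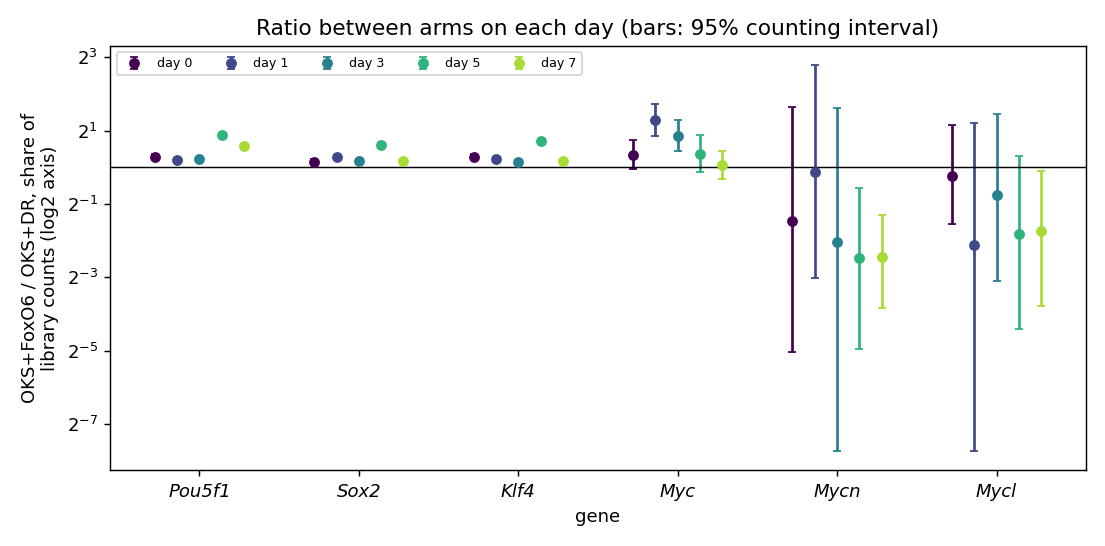
Ratio of OKS+FoxO6 to OKS+DR in share of library counts (vertical axis, log2 scale) for each gene (horizontal axis) and day (colour), with 95% counting intervals. The 15 ratios of Pou5f1, Sox2 and Klf4 lie above 1, from 1.11 to 1.85, while the ratios of Mycn and Mycl lie below 1 with wide intervals.

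The sum of the 3 transduced factors was higher in OKS+FoxO6 on each day, with the widest gap on day 5. In OKS+DR their summed TPM went from 5702 at day 0 to 10231 at day 3, then to 7841 at day 5 and 9456 at day 7. In OKS+FoxO6 the sum went from 7525 at day 0 to a highest value of 13631 at day 5 and to 10801 at day 7. Day 5 was a low point of all 3 factors in OKS+DR after day 3, and it was the highest point of Pou5f1 and Klf4 in OKS+FoxO6. They made up 0.582% to 0.943% of the counts in OKS+DR libraries and 0.691% to 1.22% in OKS+FoxO6 libraries. In OKS+FoxO6 libraries the TPM of Foxo6, which is not part of that sum, equalled 13.5% of it at day 0 and 7.06% at day 7.

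Over time, with both arms sharing the estimate, Pou5f1 was higher at day 7 than at day 0 by 0.67 on the log2 scale (SE 0.18, edgeR adjusted p = 0.0232). Klf4 was higher by 0.84 (SE 0.16, adjusted p = 0.00367). Sox2 had a difference of 0.41 (SE 0.16, adjusted p = 0.0863). Of the 6 genes, edgeR called Pou5f1, Klf4 and Mycn higher and none lower, beside 11.8% of all tested genes called higher and 10.2% called lower. DESeq2 called Pou5f1 and Klf4 but not Mycn. By share of library counts, Pou5f1 was 1.52-fold above its day 0 level on day 1 in OKS+DR (95% counting interval 1.44 to 1.60), beside 1.498-fold on day 7 (1.42 to 1.58). In OKS+FoxO6 the level of Pou5f1 relative to day 0 was 1.42-fold on day 1, 1.60-fold on day 3, 2.08-fold on day 5 and 1.84-fold on day 7.

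The proportions of the factors were not fixed. Pou5f1 had the highest TPM of the 6 genes in all 10 libraries. By TPM, Sox2 and Klf4 exchanged places, with Sox2 above Klf4 at days 0 and 1 in both arms and at day 3 in OKS+FoxO6, and Klf4 above Sox2 in the other 5 libraries. On day 1 in OKS+DR and on day 3 in OKS+FoxO6 the counting intervals of Sox2 and Klf4 overlapped. By counts, Klf4 was above Sox2 in every library, and OKS+DR at day 0 had 2151 for Pou5f1, 2338 for Sox2 and 2546 for Klf4. The order by TPM and the size of the ratios depend on the annotated transcript lengths, and the lengths of the viral transcripts are not given. The TPM ratio of Sox2 to Pou5f1 was 0.709 at day 0 and 0.653 at day 7 in OKS+DR, with its lowest value of 0.525 at day 5. In OKS+FoxO6 it was 0.644 at day 0 and 0.488 at day 7, with its lowest value of 0.430 also at day 5. The ratio of Klf4 to Sox2 was 0.733 at day 0 and 1.14 at day 7 in OKS+DR, and 0.898 and 1.07 in OKS+FoxO6. Klf4 gained on Sox2 in both arms between day 0 and day 7.

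**Figure D3:**
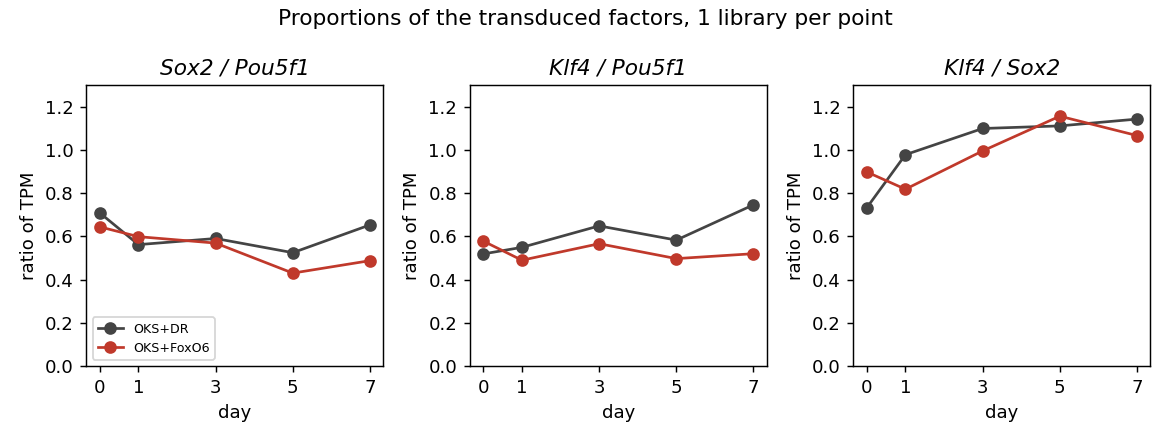
TPM ratios between the transduced factors (vertical axes, from 0) against day (horizontal axes) in OKS+DR (grey) and OKS+FoxO6 (red), 1 library per point. Sox2 over Pou5f1 is lowest at day 5 in both arms, 0.525 and 0.430, and Klf4 over Sox2 goes from below 1 at day 0 to above 1 at day 7. The size of these ratios depends on the annotated lengths that TPM divides by.

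Among the genes that were not delivered, Myc was the most abundant by TPM in every library, and its lead over Mycn and Mycl was above the counting intervals. In OKS+DR, Myc stood at 55.7, 38.8, 44.1, 32.8 and 64.7 TPM at days 0, 1, 3, 5 and 7, from 50 to 124 counts. In OKS+FoxO6 it stood at 85.6, 105.4, 92.4, 55.3 and 61.7 TPM, from 98 to 177 counts. Myc was higher in OKS+FoxO6 from day 0 to day 5 and about level at day 7. By share of library counts the ratio was highest on day 1, at 2.44 (95% counting interval 1.81 to 3.33), and next on day 3, at 1.81 (1.36 to 2.43). It was 1.26 on day 0 (0.961 to 1.68), 1.29 on day 5 (0.91 to 1.85) and 1.05 on day 7 (0.806 to 1.37), where the intervals include 1.

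The arm shift of Myc was 0.57 (SE 0.18, edgeR adjusted p = 0.0577) and did not pass the threshold. It passed without day 7, with a shift of 0.71 and an adjusted p of 0.0203, and with an offset for effective length, with a shift of 0.75 and an adjusted p of 0.0392. The average length RSEM used for Myc was 2032 to 2290.1 bases in OKS+DR and 1812 to 2032 bases in OKS+FoxO6, which moves TPM apart from counts. Between day 0 and day 7 the shared change of Myc was -0.09 (SE 0.28, adjusted p = 0.854).

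Mycn, which is active in embryonic and pluripotent cells, showed the reverse order. In OKS+DR it had 3, 3, 3, 11 and 46 counts at days 0, 1, 3, 5 and 7, or 1.78, 1.52, 1.67, 6.53 and 18.1 TPM. In OKS+FoxO6 it had 2, 3, 1, 3 and 7 counts, or 0.74, 1.4, 0.42, 1.2 and 3.0 TPM. Through day 3 both arms were at 3 counts or fewer, where no difference was detectable at this depth. The counting interval of the ratio left out 1 only at days 5 and 7. The intervals of the earlier days are wide enough to hold the later ratios, so the start of the difference cannot be timed. As a share of library counts, Mycn was 5.49-fold higher in OKS+DR than in OKS+FoxO6 at day 7 (95% counting interval 2.46 to 14.4). At day 5 the ratio was 5.56, from 11 counts against 3 counts (1.47 to 31.0).

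The arm shift of Mycn was -1.87 (SE 0.52, edgeR adjusted p = 0.0381), where 6.94% of all tested genes were called lower. With DESeq2 the shift was -1.83 and the adjusted p was 0.109, so that this call depends on the tool. It was also lost without day 3, 5 or 7, with adjusted p-values of 0.0858, 0.167 and 0.212. By TPM, Mycn was lower in OKS+FoxO6 on all 5 days, as were 9.7% of the tested genes. Between day 0 and day 7, Mycn rose by 2.82 on the log2 scale in the estimate the arms share (SE 0.77, adjusted p = 0.0224), from 3 and 2 counts to 46 and 7, and with DESeq2 this adjusted p was 0.0727.

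Epithelial markers also rose, and in OKS+DR Cdh1, Krt8 and Epcam did so before Mycn. On day 3 they were at 36.7, 32.2 and 18.7 TPM in OKS+DR, when Mycn had 3 counts there. In OKS+FoxO6 they were at 2.55, 4.71 and 3.11 TPM on that day. The summed TPM of the epithelial list (5 genes, Cdh1, Epcam, Krt8, Krt18 and Cldn4) ranged from 12.1 to 639.4 in OKS+DR and from 3.66 to 138.3 in OKS+FoxO6, with the highest values at day 7 in both. Of the 4 that were tested, 3 were called lower in OKS+FoxO6, beside 6.94% of all tested genes, and all 4 rose between day 0 and day 7, beside 11.8%. Epcam, Krt8 and Cldn4 were at 3 counts or fewer at day 0. The filter on low counts admitted them through later days only, so their rise was built in. Epcam lost its call of lower in 3 of 11 alternatives, DESeq2 among them, and Cdh1 and Krt8 lost theirs without the day term. The 10 fibroblast markers fell between day 0 and day 7, from 7909 to 2458 summed TPM in OKS+DR and from 6848 to 2610.01 in OKS+FoxO6. Between the arms, 3 of these 10 were called higher in OKS+FoxO6, beside 6.68% of all tested genes (Twist1, Pdgfra and Postn, with shifts of 1.00, 0.96 and 0.70), and 2 were called lower, beside 6.94% (Prrx1 and Col3a1, with shifts of -0.78 and -0.63). Without the day term, Twist1 and Prrx1 lost the call, and Pdgfra, Postn and Col3a1 each lost it in 4 of 11 alternatives. Of 5 neural markers 3 were tested and Tubb3 and Nes were called lower in OKS+FoxO6, with shifts of -2.58 (adjusted p = 0.000216) and -1.52 (adjusted p = 0.000246), and the list's summed TPM was 102.2 to 261.3 in OKS+DR and 33.8 to 142.1 in OKS+FoxO6. Of 5 endothelial markers Tek was the one tested, and it was called higher with a shift of 0.96 (adjusted p = 0.00113), while Cdh5 was at 0 to 4 counts and Emcn at 0 to 1 counts. Of the others that were not tested, Pecam1 had 18 counts at day 7 in OKS+DR and 0 to 3 in every other library, and Tie1 had 0 to 1 counts in OKS+DR and 1 to 7 in OKS+FoxO6. The summed TPM of the 5 was 18.7 to 53.0 in OKS+DR and 30.35 to 104.2 in OKS+FoxO6. In bulk RNA a smaller number of cells of a type and less RNA per cell cannot be told apart, and the part of any of these markers in the Mycn difference, or in those of Pou3f2 and Sox11 below, was not tested.

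Mycl, the third relative, was at low counts. In OKS+DR it had 9, 4, 5, 7 and 16 counts at days 0, 1, 3, 5 and 7, or 4.31, 1.64, 3.75, 3.16 and 5.09 TPM. In OKS+FoxO6 it had 14, 1, 4, 3 and 4 counts, or 5.53, 0.38, 1.35, 0.92 and 1.38 TPM. Mycl was lower in OKS+FoxO6 from day 1 on and higher at day 0 by TPM (1.28-fold) but not by share of library counts (0.845-fold), and the counting intervals of the ratio include 1 except at day 7, where OKS+DR was 3.34-fold higher (1.08 to 13.7). Its arm shift of -1.15 (SE 0.50, adjusted p = 0.155) did not pass. Mycn and Mycl exchanged order among libraries, and their counting intervals overlapped in all libraries but OKS+DR at day 7, where Mycn was higher, and OKS+FoxO6 at day 0, where Mycl was higher. The further Myc relative Bmyc had a shift of -0.74 that did not pass (adjusted p = 0.113), and Mycs was at 3 counts or fewer in every library.

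By composition, the Myc family differed between the arms late in the course. The summed TPM of the 3 genes was 61.8 at day 0 and 87.9 at day 7 in OKS+DR, and 91.9 and 66.1 in OKS+FoxO6. In OKS+DR at day 7, 24.7% of the family's 186 counts were Mycn (95% exact binomial interval 18.7 to 31.6). In OKS+FoxO6 at day 7 it was 5.83% of 120 counts (2.38 to 11.6). At day 3 the shares were 3.90% of 77 counts and 0.575% of 174 counts, with intervals that overlap. The summed TPM of the transduced factors was between 81.9 and 237.5 times that of the Myc family.

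**Figure D4:**
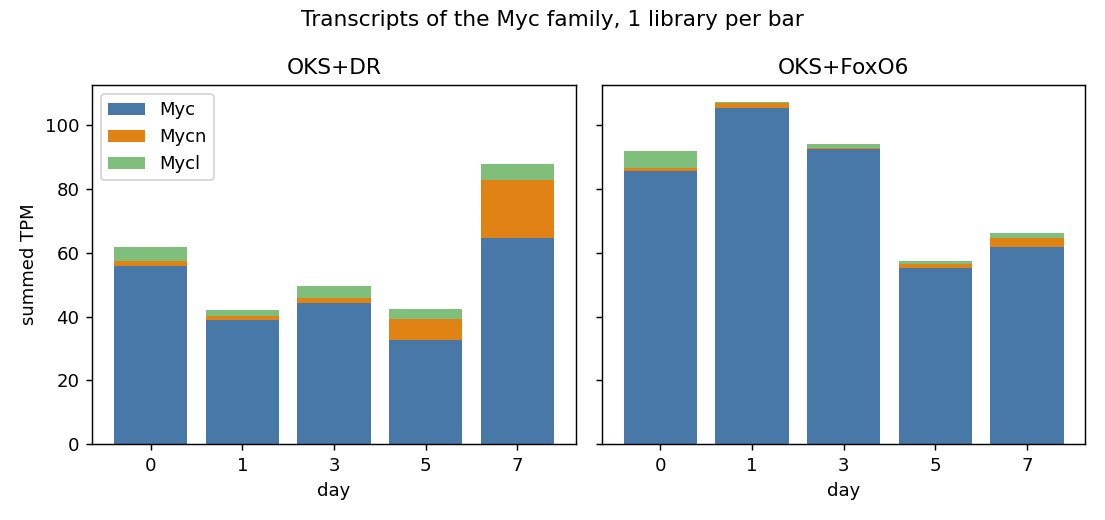
Stacked TPM of Myc, Mycn and Mycl (vertical axis, from 0) by day (horizontal axis) in OKS+DR (left) and OKS+FoxO6 (right), 1 library per bar. The Mycn part is visible at days 5 and 7 of OKS+DR, and the Myc part is tallest at day 1 of OKS+FoxO6, at 105.4 TPM.

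Whether the difference between arms grew with time was tested as a slope, in log2 units per day. With edgeR, 0 of the 6 genes passed, beside 1.1% of all tested genes with a slope called higher and 0.659% called lower. Before adjustment Pou5f1 alone was under 0.05 with edgeR, with a slope of 0.08 (SE 0.034, adjusted p = 0.248). DESeq2 called 0 of the 4 members for which it gave an adjusted p, and 0 before adjustment. Mycn had a slope of -0.25 (SE 0.20, adjusted p = 0.537) and Myc one of -0.09 (SE 0.059, adjusted p = 0.446). With a day left out, the slope of Mycn ranged from -0.34 without day 0 to -0.15 without day 1, and that of Myc from -0.20 without day 0 to -0.03 without day 7. That of Pou5f1 was 0.12 without day 7 and 0.05 without day 5.

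The Max network holds the partners and rivals of Myc proteins on the E-box. Of its 10 genes 9 were tested, 1 was called higher by edgeR in OKS+FoxO6 (6.68% of all tested genes were) and 8 did not pass. Mxi1, a Max partner that opposes Myc, stood at 6.43, 11.2, 18.0, 18.4 and 17.3 TPM in OKS+DR and at 17.7, 39.5, 29.9, 33.7 and 28.1 TPM in OKS+FoxO6. It was higher in OKS+FoxO6 on all 5 days, with a shift of 1.07 (SE 0.18, adjusted p = 0.00306) that lost its call only without the day term among 11 alternatives. Mxd4, a relative of Mxi1, had a shift of 0.74 that did not pass with edgeR (adjusted p = 0.0727) and passed under 3 of 11 alternatives, DESeq2 among them (adjusted p = 0.0249), and its difference between arms grew by 0.26 per day (adjusted p = 0.0302). Max, the shared partner, had a shift of 0.35 (adjusted p = 0.0975), and Mlxipl was at 3 counts or fewer everywhere.

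Of 10 cofactors of Myc, 1 was called lower, beside 6.94% of all tested genes, and 9 did not pass, with 5 shifts above 0 and 5 below. The one called was Ruvbl1, an ATPase of chromatin remodelling complexes, which lay between 60.6 and 67.9 TPM in OKS+DR and between 37.9 and 49.7 TPM in OKS+FoxO6, so that the arms did not overlap (shift -0.57, SE 0.14, adjusted p = 0.0241). The call was lost under 7 of 11 alternatives, DESeq2 among them. Of 10 genes for the turnover of Myc proteins, 2 were called lower, beside the same 6.94%, and 8 did not pass. These were Skp2, part of a ubiquitin ligase, at -0.62 (adjusted p = 0.0304), and Plk1, a mitotic kinase, at -0.62 (adjusted p = 0.011). Both also act in the cell cycle. Skp2 lost its call with DESeq2 (adjusted p = 0.0794) and in 7 of 11 alternatives in all, and Plk1 in 2.

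A list of 40 genes known to be induced by Myc, most of them for ribosome biogenesis and metabolism, was tested in full. Of these, edgeR called 4 lower in OKS+FoxO6, 0 higher and 36 did not pass, beside 6.94% of all tested genes called lower and 6.68% called higher. Before adjustment 13 were lower and 0 higher at a p under 0.05, beside 1779 lower and 1597 higher of all 12139 genes, and DESeq2 called 3 lower and 0 higher. The shifts of 38 of the 40 were below 0, beside 52.4% of all tested genes, and the list's median was -0.23, beside -0.02. By TPM, the number of these 40 that were lower in OKS+FoxO6 was 32, 20, 29, 32 and 31 over the successive days, beside 40.6%, 49.1%, 49.4%, 48.0% and 58.5% of all tested genes. Odc1, the enzyme that starts polyamine synthesis, stood at 239, 175, 105, 114 and 166 TPM in OKS+DR and at 200.5, 124, 72.7, 56.0 and 59.8 TPM in OKS+FoxO6. It was lower on all 5 days, with a shift of -0.76 (SE 0.15, adjusted p = 0.00868). Cad, which starts pyrimidine synthesis, had a shift of -0.50 (adjusted p = 0.0492), the mitochondrial chaperone Hspd1 one of -0.44 (adjusted p = 0.0318) and the ribosome assembly factor Grwd1 one of -0.57 (adjusted p = 0.0487). Odc1 lost its call in 1 of 11 alternatives (no day term), Hspd1 in 5, and Cad and Grwd1 in 8 each, with DESeq2 among them.

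Of 10 genes known to be repressed by Myc, 9 were tested, 2 were called higher in OKS+FoxO6, beside 6.68% of all tested genes, and 7 did not pass. Gadd45a, a stress gene that slows the cell cycle, stood at 27.9, 21.6, 33.3, 59.0 and 52.4 TPM in OKS+DR and at 203.9, 188, 226.8, 199 and 180 TPM in OKS+FoxO6. The arms did not overlap, and the shift was 2.35 (SE 0.19, adjusted p = 6.46e-05), past the threshold in all 11 alternatives. Thbs1, which encodes a matrix protein, had a shift of 1.46 (adjusted p = 0.00646) that did not pass without the day term. Thbs1 fell from 790 to 25.8 TPM in OKS+DR and from 1345 to 56.9 TPM in OKS+FoxO6 between day 0 and day 7.

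**Figure D5:**
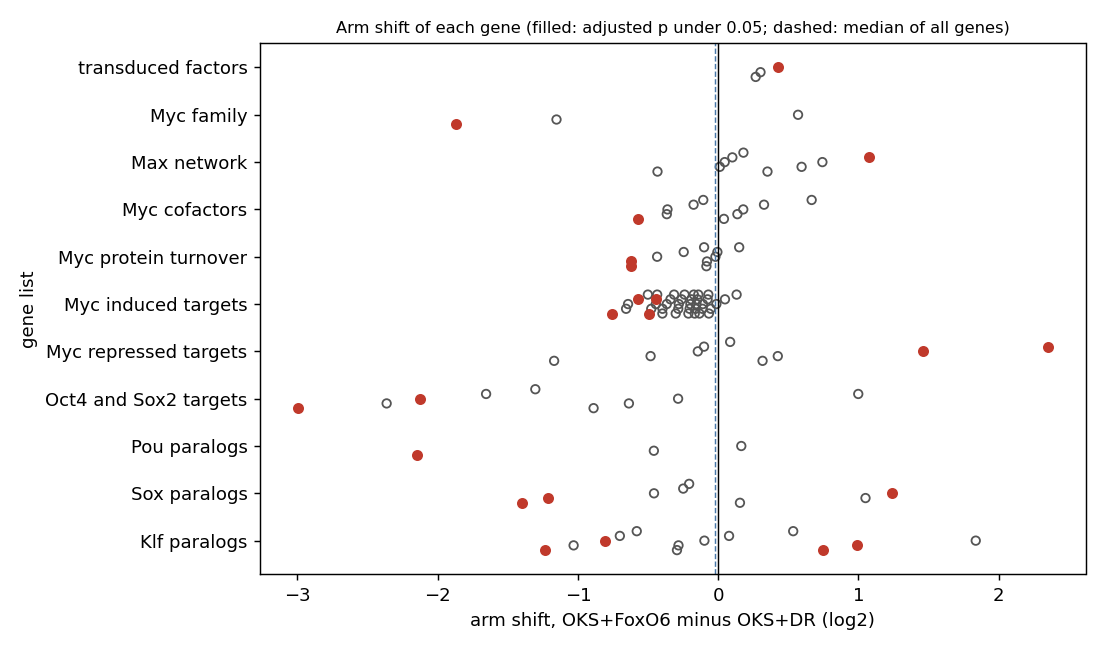
Arm shift in log2 units (horizontal axis, OKS+FoxO6 minus OKS+DR) of each tested gene of 11 lists (vertical axis), with filled points for an adjusted p under 0.05 and a dashed line at the median of all genes, -0.02. The Myc induced targets lie mostly below 0, with 38 of 40 there, and Gadd45a is the point farthest to the right.

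Of 18 targets that Oct4 and Sox2 switch on in pluripotent cells, 9 were tested, 2 were called lower in OKS+FoxO6, beside 6.94% of all tested genes, and 7 did not pass. Fbxo15, which did not pass, went the other way, with 14 counts at day 7 in OKS+DR and 27 in OKS+FoxO6. Among those not tested, Esrrb had 84 counts at day 7 in OKS+DR and 8 in OKS+FoxO6, and Dppa5a had 68 and 5. Nanog, a core pluripotency factor, had 0, 0, 1, 22 and 122 counts in OKS+DR and 0, 0, 0, 2 and 16 counts in OKS+FoxO6. It was therefore measured at days 5 and 7, where it was lower in OKS+FoxO6 (shift -3.00, SE 0.52, adjusted p = 0.00592), and without day 7 its adjusted p was 0.0757. Tet1, an enzyme that oxidises methylated cytosine, had a shift of -2.12 (adjusted p = 0.0362), a call lost in 5 of 11 alternatives. The filter on low counts admitted Tet1 through OKS+DR alone, since it had 1 to 10 counts in OKS+FoxO6, which tilts a call of lower. The shift of Tet1 was -0.96 with the offset for effective length and -1.32 without day 7. Of the 9 targets, 8 rose between day 0 and day 7, beside 11.8% of all tested genes, and no fold is given because several had no counts at day 0. Such genes pass the filter on low counts only through later days, so their rise was built in and these shares cannot be compared. Sox2ot, which runs through Sox2 on the same strand, had 1, 0, 17, 9 and 16 counts in OKS+DR and 1, 2, 14, 22 and 22 counts in OKS+FoxO6. It rose between day 0 and day 7 (adjusted p = 0.00887) and its arm shift was 0.30 (adjusted p = 0.754). At 1 count in both arms on day 0, Sox2ot also passed the filter only through later days.

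Relatives of the transduced factors, which were not delivered by virus, were compared beside the same shares of all tested genes, 6.68% called higher and 6.94% called lower. Of 13 Pou genes 3 were tested, and Pou3f2, a neural relative of Pou5f1, was called lower in OKS+FoxO6 (shift -2.15, SE 0.41, adjusted p = 0.00784), with 73 counts at day 7 in OKS+DR and 11 in OKS+FoxO6, and without day 7 its adjusted p was 0.0754. Of 18 Sox genes 8 were tested, 1 was called higher and 2 lower. Sox4 was higher in OKS+FoxO6 with a shift of 1.24 (adjusted p = 0.00109), and Sox11 and Sox13 were lower with shifts of -1.40 (adjusted p = 0.00138) and -1.22 (adjusted p = 0.0015). Sox13 went from 19.5 TPM at day 0 to 383.7 TPM at day 7 in OKS+DR and from 10.5 to 179.6 TPM in OKS+FoxO6.

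Of 16 Klf genes 13 were tested, 2 were called higher and 2 lower, beside 6.68% and 6.94% of all tested genes. Klf2, which can stand in for Klf4 in pluripotent cells, stood at 5.20, 2.96, 9.21, 20.4 and 36.3 TPM in OKS+DR and at 4.07, 1.36, 2.87, 7.74 and 13.8 TPM in OKS+FoxO6. It was lower on all 5 days, with a shift of -1.23 (adjusted p = 0.0278), and lost its call in 5 of 11 alternatives, DESeq2 among them (adjusted p = 0.105). Klf10 was also lower (shift -0.81, adjusted p = 0.00841). Klf5 and Klf6 were higher, with shifts of 0.99 (adjusted p = 0.0395) and 0.75 (adjusted p = 0.00696). Klf5 lost its call in 6 of 11 alternatives, DESeq2 among them (adjusted p = 0.0606), and Klf6 and Klf10 each lost it in 1, without the day term.

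The genes whose course was most like that of each member were found by Pearson's r of log2(TPM + 1) over the 10 libraries, among about 11147 genes with a mean of at least 5 TPM. For Pou5f1 they were Kremen1 (r = 0.975), Abca7 (0.953) and 2310022A10Rik (0.951). For Sox2 they were Zfp326 (0.957), Pald1 (0.942) and Glrx (0.939), and for Klf4 they were Nr2f2 (0.953), 2310022A10Rik (0.95) and Appl2 (0.949). For Myc they were Slc35b2 (0.924), Atpaf2 (0.91) and Wdr24 (0.902). For Mycn they were Srsf7 (0.952), Trim28 (0.946) and Impa2 (0.943), and for Mycl they were Meg3 (0.927), Snhg5 (0.916) and Sf3a3 (0.916). These are descriptions over libraries that share arm, day and depth.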

How the data were processed

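The authors made all values with RSEM and Bowtie2 on GENCODE M13 (mm10), with versions not given in the sources used here. The deposited expected counts are RSEM's read estimates per gene without normalization, and the deposited TPM values are RSEM's levels per effective length. Counts in the table of all libraries equal those of the files per library for 48476 genes, and 2124 further genes hold at most 0.312% of a library's counts. The labels name a VAHTS mRNA-seq kit and the methods a TruSeq kit, and the strand used in counting and the cDNA carried by the viruses are not given in the sources used here, so overlapping Sox2 and Sox2ot may share reads.

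Samples were grouped by the titles of the libraries into 2 arms and 5 days. Expected counts were rounded and fitted in R 4.3.3 with edgeR 4.0.16 (TMM, filterByExpr, quasi-likelihood test, day as a factor, Benjamini-Hochberg over 12139 genes, threshold 0.05, common dispersion 0.0362). The test of the change from day 0 to day 7 used the same fit, and the slope added arm by day. The standard error is the log2 value divided by the root of F. On simulated data, 186 of 200 genes with an arm shift of 2 were recovered with 12 false calls among 11789 genes tested. For a slope of 0.5 per day, 171 of 200 were recovered with 13 false calls among 11771. Differences per day used log2(TPM + 1), which compresses differences of genes with few transcripts. Alternatives were DESeq2 1.42.0, its size factors, no filter (at least 1 read), an offset for effective length, library sizes without the transduced genes, no day term, each day left out, and for the values per day 0.1 in place of 1, TMM-scaled CPM (prior count 2), and TPM without the transduced genes. Python 3.11.15 with pandas 2.3.3, numpy 2.4.6, scipy 1.17.1 and matplotlib 3.10.9 computed the rest.

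The members and the gene lists were chosen with earlier results of these data known. Genes named are the members, Foxo6, the 3 genes most like each member, and list genes. The rule lets any gene of a list be named, and asks for those called in the arm shift or the slope, at most the 5 of largest shift per list. Coordinates are GENCODE M21 on GRCm38 and promoter windows are RefSeq's on GRCm38.p6. No promoter window was used for Myc.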

Additional observations from a re-analysis of the deposited data

Results flagged for a closer look

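The difference between the arms changed over the days for 5 genes of the lists, 1 of them a fibroblast marker, by the slope test of edgeR with an adjusted p under 0.05. Per day, the difference of OKS+FoxO6 minus OKS+DR grew by 0.16 on the log2 scale for Cdkn1a (SE 0.035, adjusted p = 0.0381), a cell cycle inhibitor that went from 674 to 415 TPM in OKS+DR and from 513 to 614 TPM in OKS+FoxO6 between day 0 and day 7. It grew by 0.26 for Mxd4 (adjusted p = 0.0302), which was at 33.1 and 42.2 TPM at day 0 and at 35.7 and 102.3 TPM at day 7 in OKS+DR and OKS+FoxO6. The slope was -0.28 for Ep400 (adjusted p = 0.00469), a remodelling ATPase that went from 46.2 to 74.8 TPM in OKS+DR and from 152 to 40.0 TPM in OKS+FoxO6. It was -0.39 for Ndrg1 (adjusted p = 0.0112), a stress and differentiation gene that went from 20.5 to 45.4 TPM in OKS+DR and from 30.9 to 12.98 TPM in OKS+FoxO6. It was 0.36 for the fibroblast marker Col1a2, a collagen gene (adjusted p = 0.00161) that went from 1615 to 262 TPM in OKS+DR and from 1336 to 758 TPM in OKS+FoxO6. Ep400 and Col1a2 kept the call under all 10 alternatives of the slope, while Cdkn1a lost it in 5 of 10, Mxd4 in 2 of 10 and Ndrg1 in 3 of 9. With edgeR, 0 of the 6 members had such a slope.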

How the results depend on the processing

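The fit compares the arms within each day, since day is a term of it, and the labels give no replicate numbers for any further block. Of the 6 members, each kept the direction of its arm shift under all 11 alternatives. Pou5f1 lost its call without the day term (0.45) and without day 1, 3, 5 or 7, but not without day 0 (days left out, 0.31 to 0.49). Mycn lost it with DESeq2 (-1.83), with the length offset (-1.83), without the day term (-2.14) and without day 3, 5 or 7, but not without day 0 or 1 (days left out, -2.20 to -1.54). Without a filter Sox2 (0.29), Klf4 (0.33) and Myc (0.60) passed, and Myc also passed with the length offset (0.75) and without day 7 (days left out, 0.40 to 0.71). Over all genes, the arm shift had 1653 calls, 161 without the day term and 713 to 1673 with a day left out. The slope had 214 calls, 628 without a filter, 112 with the length offset and 96 to 292 with a day left out. The change from day 0 to day 7 cannot be given without either of those days. With a day left out, the slopes of Sox2 (-0.0043 to 0.0793) and Klf4 (-0.014 to 0.0809) turned below 0 without day 5, and the arm shift of Cdkn1a (-0.066 to 0.24) without day 7. The cause was not tested. On the scale of CPM in place of TPM, the per-day differences of Klf4 (0.17) and Myc (0.07) at day 7 turned above 0 and that of Mycl at day 0 (-0.23) below 0, while a smaller pseudocount or rescaled TPM turned none. Depth limits Mycn, at 3 counts or fewer in 7 of 10 libraries, and Mycl, at 1 to 16 counts.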
